A study of Saccharomyces cerevisiae with 4 samples.

Results

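The genes described here are 8 that act in making or breaking down trehalose in budding yeast (Saccharomyces cerevisiae). TPS1, TPS2, TPS3 and TSL1 serve synthesis, NTH1, NTH2 and ATH1 serve breakdown, and PGM2 serves the supply of glucose-1-phosphate. Other supply genes, such as PGM1 and UGP1, are not among these 8 and are described further below. The 8 were picked out by gene symbol in the platform annotation, by a rule that uses no measured value. That rule was written with earlier results of these data known. Each was measured by 1 probe set, and all 8 were found among 5449 S. cerevisiae genes measured. The arrays came from the wild-type strain W1588-4c, grown in YPD, a rich glucose medium, to log phase (OD600 0.6 to 0.8). The ebselen group (2 arrays) received 100 µM ebselen, a selenium compound that reacts with thiols, for 3 h. The DMSO group (2 arrays) received the solvent alone, for which the sample labels used here give no separate exposure time. The labels call the arrays of a group biological replicates and describe 1 strain, 1 dose and 1 time.

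Trehalose is a disaccharide of glucose that yeast stores as a reserve and as a protectant of proteins and membranes under heat, drying and other stresses. It is made from UDP-glucose and glucose-6-phosphate by a complex in which Tps1 forms trehalose-6-phosphate and Tps2 removes the phosphate, with Tps3 and Tsl1 as large regulatory subunits. It is split back to glucose by the neutral trehalases Nth1 and Nth2 and by the acid trehalase Ath1. Pgm2, the major phosphoglucomutase, interconverts glucose-6-phosphate and glucose-1-phosphate, from which UDP-glucose is made. Protein kinase A activates Nth1 and holds back the stress transcription factors Msn2 and Msn4, which induce many of these genes.

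A value below is log2 expression relative to the median of the same gene over the 4 arrays. Because of that centring the middle pair of a gene's values are equal with opposite signs, and levels of different genes cannot be compared. A change is the mean of the ebselen arrays minus the mean of the DMSO arrays, given with the moderated standard error of limma (SE, n = 2 arrays per group). Rose and fell are used where limma's adjusted p (Benjamini-Hochberg over 5449 genes) was under 0.05. In a culture, less RNA per cell and fewer cells expressing a gene cannot be told apart.

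None of the trehalose genes rose in the arrays labelled ebselen, and 6 of 8 fell. ATH1, PGM2, NTH2, TPS1, TSL1 and NTH1 fell, while TPS2 and TPS3 did not pass the test. At least 2-fold lower were ATH1 (2.31-fold) and PGM2 (2.19-fold). The median change of the 8 genes was −0.48, against −0.03 for all genes. As background, 38.8% of all genes fell, 33.0% rose, 7.56% fell by at least 2-fold and 4.18% rose by at least 2-fold, so that 71.7% passed in either direction. The change of each gene was below 0, and the ebselen arrays did not overlap the DMSO arrays for 7 of the 8 genes, against 86.6% of all genes in either direction and 46.1% in the lower direction.

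**Figure D1:**
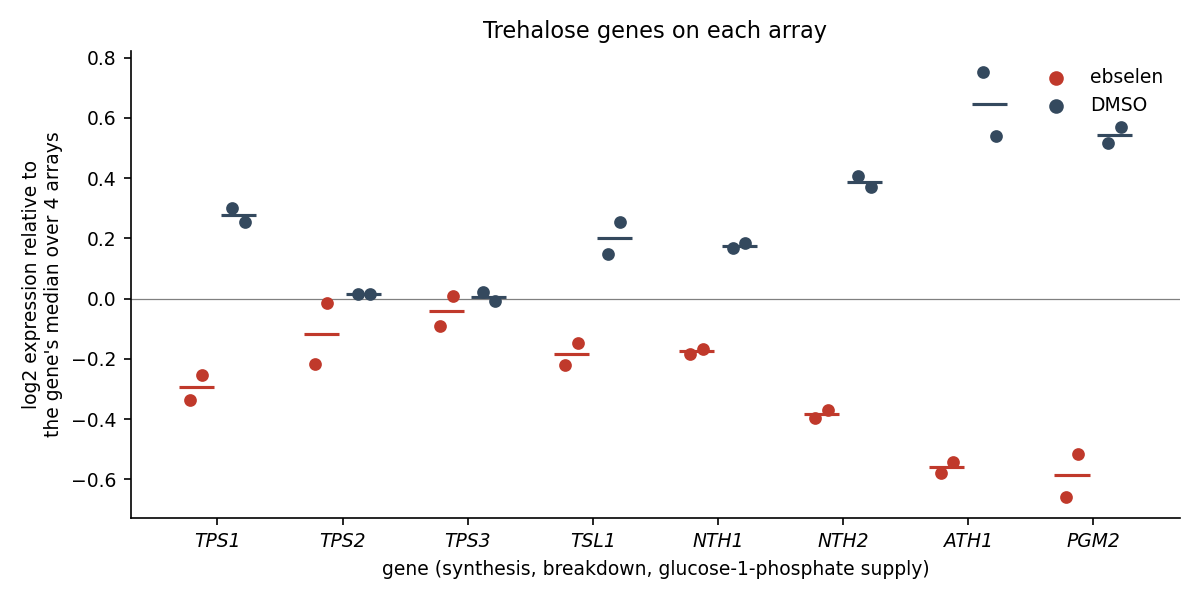
Log2 expression of the 8 trehalose genes, each centred on its own median (vertical axis), by gene (horizontal axis); points are single arrays, ebselen left of DMSO, and short lines are group means. ATH1 and PGM2 show the widest gaps between groups, and the points of the groups overlap only for TPS3.

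The gene of the first step of synthesis fell. TPS1 (YBR126C), the trehalose-6-phosphate synthase, was at −0.34 and −0.25 on the ebselen arrays, against 0.30 and 0.25 on the DMSO arrays. Both ebselen arrays lay below both DMSO arrays, and the gap was several times the spread within either group. The change was −0.57 ± 0.057, or 1.48-fold lower, with a limma adjusted p (Benjamini-Hochberg) of 0.00059. Of all genes, 18.9% had a lower change.

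TPS2 (YDR074W), the phosphatase of the second step, did not pass the test. It was at −0.22 and −0.01 on the ebselen arrays, against 0.01 and 0.01 on the DMSO arrays. Ebselen replicate 1 was lower than the 3 other arrays, which lay close together. The change was −0.13 ± 0.081, with a 95% interval from −0.34 to 0.07 and a limma adjusted p (Benjamini-Hochberg) of 0.196. Without ebselen replicate 2 the change was −0.23, with an adjusted p of 0.0244 in limma, and without ebselen replicate 1 it was −0.03.

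The regulatory subunits differed from each other in outcome. TSL1 (YML100W) was at −0.22 and −0.15 on the ebselen arrays, against 0.15 and 0.25 on the DMSO arrays. The groups did not overlap, and TSL1 fell with a change of −0.38 ± 0.064 (1.30-fold lower, limma adjusted p after Benjamini-Hochberg 0.00362). In the methods' t-test TSL1 missed the threshold (adjusted p 0.0538 after Benjamini-Hochberg).

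For TPS3 (YMR261C), the other large subunit, values were −0.09 and 0.01 on the ebselen arrays, against 0.02 and −0.01 on the DMSO arrays. The groups overlapped, and TPS3 was the gene of the 8 with the smallest change, −0.05 ± 0.059 (limma adjusted p after Benjamini-Hochberg 0.490). Its 95% interval, −0.20 to 0.10, held small changes in both directions. TPS2 and TPS3 passed as lower under 2 other ways of scaling, which are given with the array controls below.

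All 3 trehalase genes fell. NTH1 (YDR001C), the main neutral trehalase of the cytosol, was at −0.18 and −0.17 on the ebselen arrays, against 0.17 and 0.18 on the DMSO arrays. Its replicates were among the closest of the 8 genes, and the change was −0.35 ± 0.050 (1.27-fold lower, limma adjusted p after Benjamini-Hochberg 0.00204).

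NTH2 (YBR001C), the paralog of NTH1, was at −0.40 and −0.37 on the ebselen arrays, against 0.41 and 0.37 on the DMSO arrays. The groups stood well apart. NTH2 fell by 0.77 on the log2 scale (SE 0.051), or 1.71-fold, with a limma adjusted p (Benjamini-Hochberg) of 0.000159. Only 11.9% of all genes had a lower change.

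ATH1 (YPR026W), the acid trehalase, which acts on trehalose outside the cytosol, had the largest change of the 8 genes. It was at −0.58 and −0.54 on the ebselen arrays, against 0.75 and 0.54 on the DMSO arrays. DMSO replicate 1 was the higher of the control arrays, and both stood far above the ebselen arrays. The change was −1.21 ± 0.083, with a 95% interval from −1.42 to −0.99 and a limma adjusted p (Benjamini-Hochberg) of 0.000175. In all, 5.32% of genes had a lower change.

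PGM2 (YMR105C), the phosphoglucomutase, was at −0.66 and −0.52 on the ebselen arrays, against 0.52 and 0.57 on the DMSO arrays. The groups were separated by more than 1 log2 unit. PGM2 changed by −1.13 ± 0.068 (limma adjusted p after Benjamini-Hochberg 0.000119), and 6.17% of genes had a lower change.

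**Figure D2:**
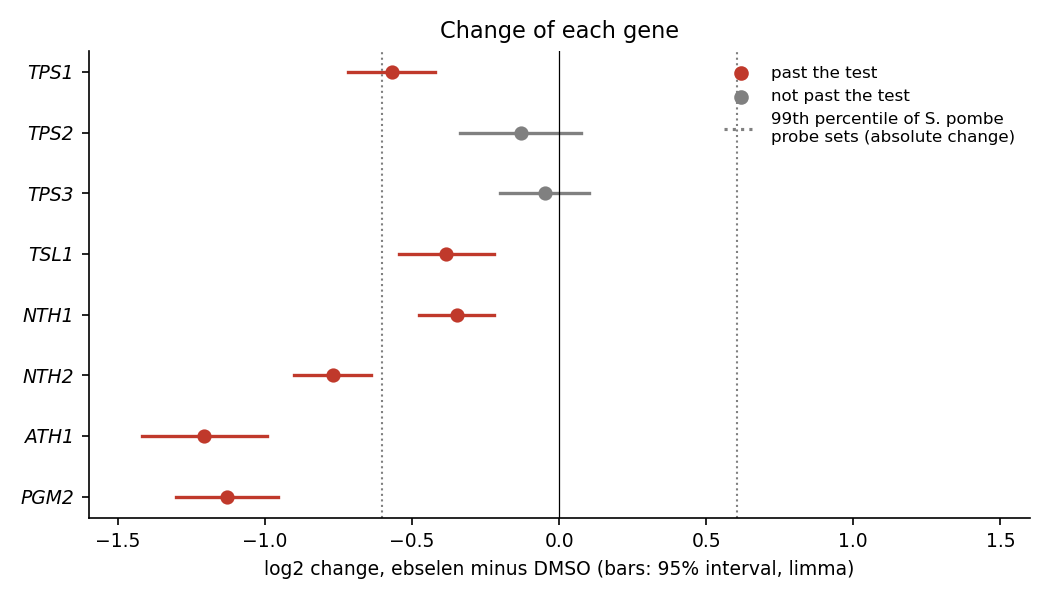
Log2 change, ebselen minus DMSO (horizontal axis), of each trehalose gene (vertical axis); points are changes, bars are 95% intervals from limma, and dotted lines mark the 99th percentile of the absolute change of the S. pombe probe sets (0.60). The intervals of TPS2 and TPS3 hold 0, and those of NTH2, ATH1 and PGM2 lie wholly below −0.60.

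The array also carries probe sets of fission yeast (Schizosaccharomyces pombe), an organism absent from these cultures by the labels, which give a measure of background. The 1746 taken as such were those annotated with 1 symbol whose gene ID matched no S. cerevisiae gene in RefSeq. No species field was used, so some of the 1746 may belong to S. cerevisiae. Their absolute change had a 95th percentile of 0.47 and a 99th percentile of 0.60. Among the trehalose genes, ATH1, PGM2 and NTH2 changed by more than the 99th percentile, and TPS1 by more than the 95th. TSL1 and NTH1 passed the test with changes inside that range. In a fit of all probe sets except controls, 9.51% of the S. pombe probe sets passed, and the groups did not overlap for 42.5% of them.

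The S. pombe probe sets for trehalose synthesis genes had changes above 0. The probe set for S. pombe tps1 was at −0.05 and 0.42 on the ebselen arrays, against −0.33 and 0.05 on the DMSO arrays. Its change was 0.32, and those of tps2 and tpp1 were 0.12 and 0.36. None passed in the fit of all probe sets, with adjusted p from 0.156 to 0.577 (limma, Benjamini-Hochberg). An S. pombe probe set with the symbol nth1 was left out, because that gene is not a trehalase.

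Related genes were also compared within each array, as the difference of their relative values, which does not depend on how arrays are scaled by a constant. For 5 such pairs the arrays of the groups did not overlap. The groups did not overlap for 86.6% of all single genes either, and the share over other pairs of genes was not computed. With 2 arrays per group the exact two-sided permutation test cannot go below p = 0.333, which each of the 5 pairs reached (0.333 also after Benjamini-Hochberg adjustment over the 5). These differences are therefore given as sizes, and the test does not show them to be past a threshold.

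TSL1 minus TPS3 was −0.13 and −0.16 on the ebselen arrays, against 0.12 and 0.26 on the DMSO arrays, a change of −0.33. Relative to its fellow regulatory subunit, TSL1 was thus 1.26-fold lower. TPS2 minus TPS1 was 0.12 and 0.24 on the ebselen arrays, against −0.28 and −0.24 on the DMSO arrays, a change of 0.44. The phosphatase transcript was higher relative to the synthase transcript, although this difference shrank to 0.17 once a trend with coding length was removed.

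Among the trehalases, NTH2 minus NTH1 was −0.21 and −0.20 on the ebselen arrays, against 0.24 and 0.19 on the DMSO arrays, a change of −0.42. NTH2 was lower relative to NTH1 on both ebselen arrays. ATH1 minus NTH1 was −0.40 and −0.37 on the ebselen arrays, against 0.59 and 0.36 on the DMSO arrays, a change of −0.86. The acid trehalase transcript was 1.81-fold lower relative to the neutral one.

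The phosphoglucomutase pair gave the widest contrast. PGM1 (YKL127W), the minor isoform, was at 0.34 and 0.42 on the ebselen arrays, against −0.34 and −0.45 on the DMSO arrays. It rose by 0.78 (SE 0.064, limma adjusted p after Benjamini-Hochberg 0.000307), while PGM2 fell. PGM2 minus PGM1 was −0.999 and −0.935 on the ebselen arrays, against 0.859 and 1.02 on the DMSO arrays, a change of −1.91 or 3.75-fold.

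**Figure D3:**
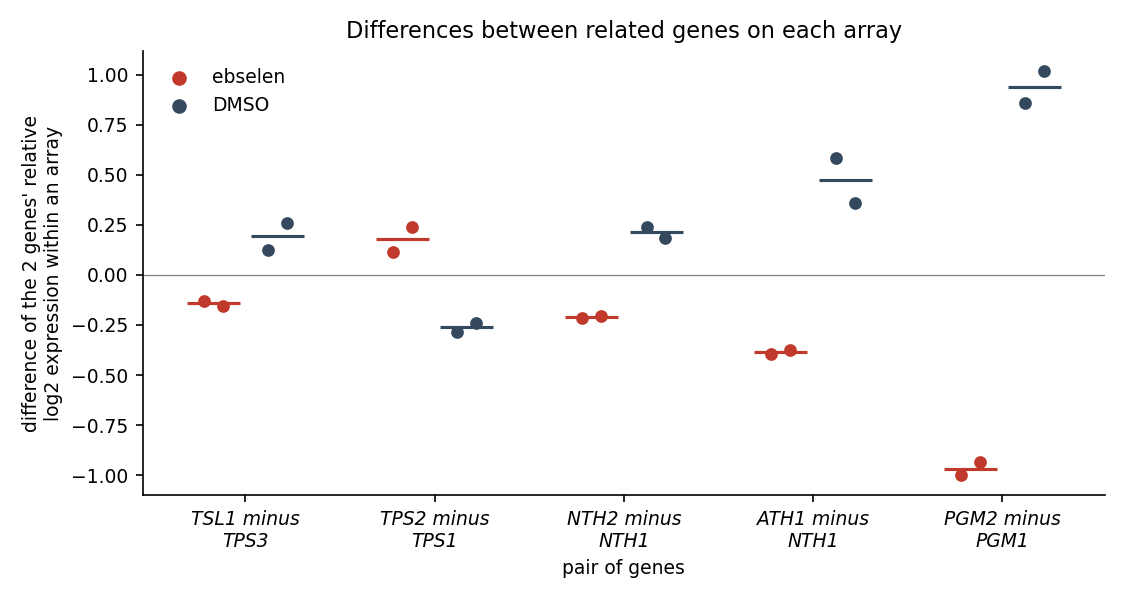
Difference between the relative log2 expression of the genes of each pair within an array (vertical axis), for 5 pairs (horizontal axis); points are single arrays, ebselen left of DMSO, and lines are group means. The ebselen points lie below the DMSO points for every pair except TPS2 minus TPS1, where they lie above, and the gap is widest for PGM2 minus PGM1.

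Averaged by role, the 4 synthesis genes had a mean of −0.22 and −0.10 on the ebselen arrays, against 0.12 and 0.13 on the DMSO arrays. The 3 trehalase genes had a mean of −0.39 and −0.36 on the ebselen arrays, against 0.44 and 0.36 on the DMSO arrays. The mean change was −0.28 for synthesis and −0.78 for breakdown, a difference of 0.49 that was not tested.

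Genes that supply the pathway split in both directions. Of 7 genes of hexose phosphate and UDP-glucose supply, 2 fell, 1 rose and 4 did not pass, with a median change of −0.03. Over all genes, 38.8% fell and 33.0% rose. GLK1, glucokinase, fell (−1.01 ± 0.075), as did PGI1, phosphoglucose isomerase (−0.21 ± 0.052), and PGM1 rose. The hexokinase genes HXK1 and HXK2 had changes of 0.10 and −0.03, EMI2, a relative of glucokinase, had 0.12, and UGP1, which makes UDP-glucose, had −0.06, and none of the 4 passed (limma's adjusted p by Benjamini-Hochberg from 0.146 to 0.652). The PGI1 call was lost without DMSO replicate 1 or DMSO replicate 2 and with all probe sets in one fit, with a change of −0.21 to −0.22 in each.

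Glycogen, the other glucose reserve, draws on the same UDP-glucose. Of its 7 genes 4 fell, 2 rose and 1 did not pass, with a median of −0.80, where 38.8% of all genes fell and 33.0% rose. GSY2 and GSY1 encode glycogen synthases, and they moved in opposite directions (−1.36 ± 0.056 and 1.42 ± 0.070). The initiator pair also split, with GLG1 at −1.08 and GLG2 at 0.37, the second of which lost its call with scaling on the hybridization controls. Those that also fell were GLC3, the branching enzyme (−0.96), and GDB1, the debranching enzyme (−0.80), while GPH1, glycogen phosphorylase, did not pass (−0.10), although it passed as lower without ebselen replicate 2 (−0.22).

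Of 8 genes of cAMP and protein kinase A signalling 6 fell, 0 rose and 2 did not pass, with a median of −0.32, where 38.8% of all genes fell and 71.7% passed in either direction. PDE1 and PDE2, the cAMP phosphodiesterases, fell (−1.35 ± 0.052 and −0.78 ± 0.056), and so did the catalytic subunits TPK2 (−0.86 ± 0.049) and TPK3 (−0.24), the regulatory subunit BCY1 (−0.22) and the GTPase RAS2 (−0.39). RAS1 (−0.13) and CYR1, adenylate cyclase (−0.02), did not pass, although RAS1 passed as lower without ebselen replicate 1 (−0.22). The calls of BCY1 and TPK3 were lost without DMSO replicate 2 and with the length trend removed, and that of BCY1 also without DMSO replicate 1 and with all probe sets in one fit.

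Among 9 stress factors and kinases, 4 fell, 2 rose and 3 did not pass, with a median of −0.15. The shares over all genes were 38.8% that fell and 33.0% that rose. The paralogous activators split: MSN4 was at −0.45 and −0.31 on the ebselen arrays, against 0.31 and 0.46 on the DMSO arrays, and fell (−0.77 ± 0.079), whereas MSN2 rose (0.37 ± 0.064). In the methods' t-test MSN2 and YAK1 missed the threshold, and MSN2 also did with scaling on the hybridization controls. HOG1, the kinase of the osmotic stress pathway, rose (0.35 ± 0.058), but had a change near 0 with that scaling. RIM15 (−0.62), a kinase of entry into quiescence, MIG1 (−0.41), a glucose repressor, and YAK1 (−0.35), a kinase that opposes protein kinase A, fell. HSF1, the heat shock factor (−0.15), SNF1, the kinase of glucose derepression (−0.07), and GIS1, a factor of the diauxic shift (0.06), did not pass, although HSF1 passed as lower when arrays were centred on S. pombe probe sets (−0.22).

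Partners of neutral trehalase had lower values throughout, and 3 of 4 fell, with a median of −1.03. As background, 38.8% of all genes fell and 71.7% passed in either direction. DCS2 was at −1.11 and −1.07 on the ebselen arrays, against 1.07 and 1.07 on the DMSO arrays, a change of −2.16 ± 0.051 or 4.48-fold. DCS1, a scavenger decapping enzyme described as an inhibitor of Nth1, fell by 1.40 on the log2 scale (SE 0.072), and DCS2 encodes its relative, a regulator of DCS1 made under stress. The 14-3-3 protein genes, whose products activate phosphorylated Nth1, were lower for BMH2, which fell (−0.66 ± 0.050), while BMH1 missed the threshold (−0.18, adjusted p 0.0507 in limma with Benjamini-Hochberg), and passed when arrays were centred on S. pombe probe sets. MAL11, also called AGT1, a sugar carrier that takes up trehalose, did not pass (−0.10).

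**Figure D4:**
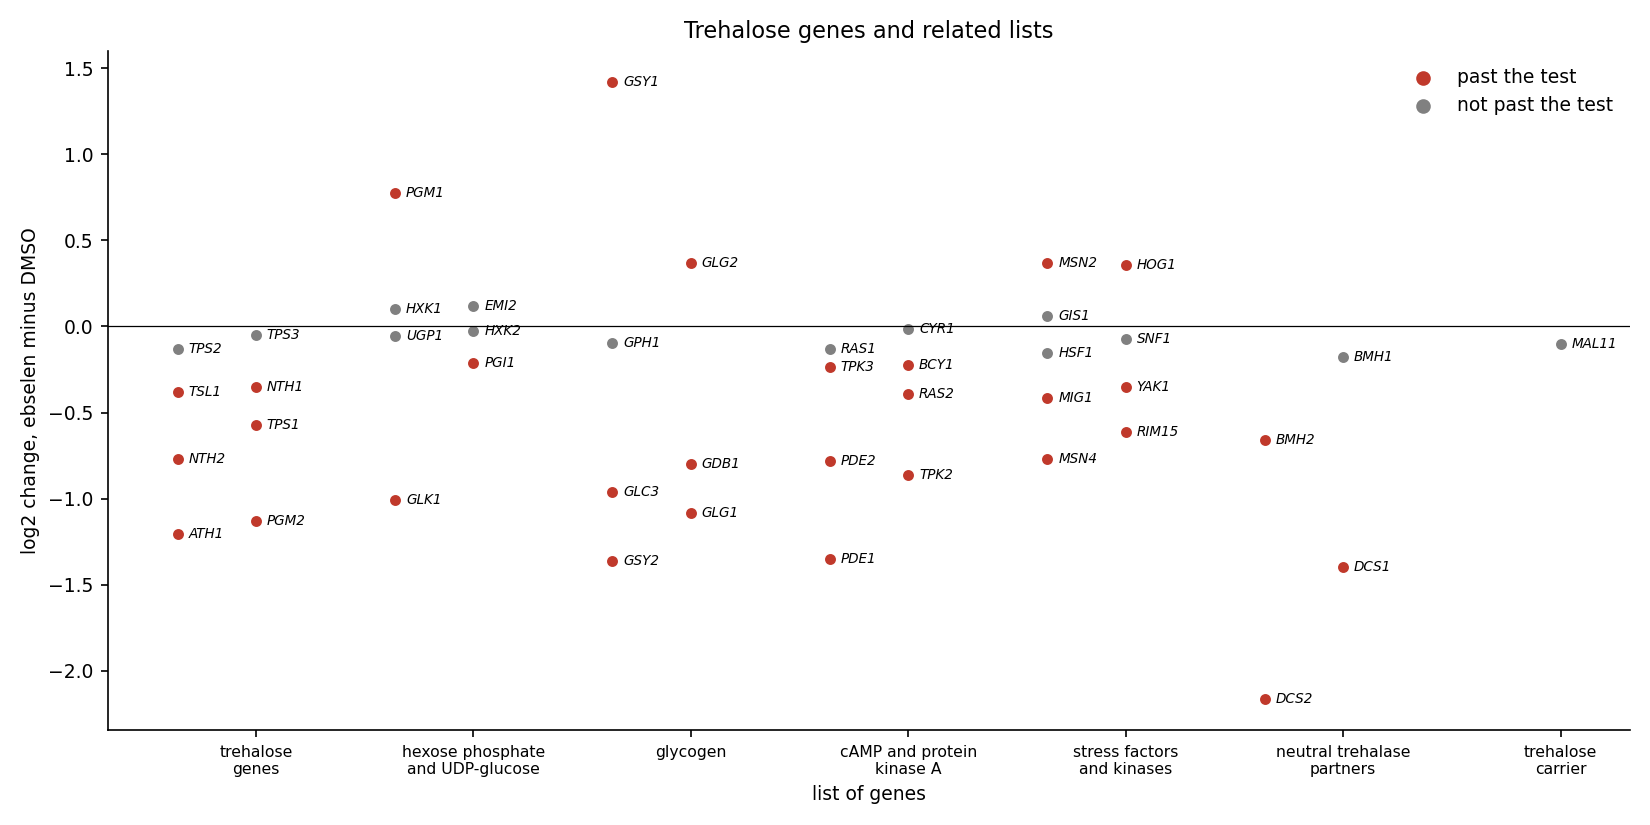
Log2 change, ebselen minus DMSO (vertical axis), of each gene in the trehalose set and 6 related lists (horizontal axis); each point is a gene, red where it passed limma's test and grey where it did not. Points of the trehalose set, the cAMP list, the neutral trehalase partners and the carrier all lie below 0, and the supply, glycogen and stress factor lists hold genes on both sides.

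The genes most like ATH1 over the 4 arrays, by Euclidean distance between their relative values, were TMT1 (distance 0.058), which encodes a trans-aconitate methyltransferase, YTP1 (0.064) and CAT2 (0.109), a carnitine acetyltransferase. Their changes were −1.25, −1.19 and −1.30. A profile of 4 centred values holds little beyond the difference between the groups.

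In the RefSeq annotation of assembly R64, 0 of the 8 genes overlapped another gene. Of 15 measured genes next to them, 6 fell, 3 rose and 6 did not pass, against 38.8% and 33.0% of all genes. YML100W-A and ARG81, on either side of TSL1, rose (0.78 and 0.24), and both neighbours of NTH2, ECM15 and RER2, fell (−0.38 and −0.74). These 4 genes were chosen after their values were seen.

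Array controls differed between the groups in the signal of the 5′ end against the 3′ end. For 8 S. cerevisiae transcripts probed at both ends, 5′ minus 3′ changed by −0.75 ± 0.26 (SD over 8 transcripts), from −1.11 to −0.35. Its part in the changes above was not tested, and the positions of the probes on each trehalose transcript were not used here. The coding lengths of the trehalose genes ran from 1488 bases (TPS1) to 3636 bases (ATH1), and the Spearman correlation of length with change was 0.05 over the 8 genes and 0.19 over all genes, as a description of the same 4 arrays. With the trend in coding length removed, all 8 genes passed as lower, TPS2 with −0.33 and TPS3 with −0.29. Among all genes, 2016 then passed as lower and 1936 as higher, against 2113 and 1796 without that removal. Of the listed genes that had not passed, CYR1 (−0.37), HSF1 (−0.32) and GPH1 (−0.30) then passed as lower and HXK1 (0.17) as higher.

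Scaling the arrays on hybridization controls, transcripts added to the hybridization mix, shifted the median over all genes by −0.35. All genes then split into 645 rises and 3177 falls (16.9% rises among the calls), against 1796 and 2113 (45.9%) as deposited. All 8 trehalose genes passed as lower on that scale, TPS2 with −0.49 and TPS3 with −0.40, so each change above is one relative to other genes of the same arrays. The SE there was 0.133 for every trehalose and listed gene, since the same offset was taken from all genes of an array. Passes on that scale thus share an uncertain shift between groups of 2 arrays, and are not separate evidence for each gene. Listed genes that had not passed as deposited and passed as lower on that scale were BMH1 (−0.53), HSF1 (−0.51), RAS1 (−0.49), GPH1 (−0.45), MAL11 (−0.45), SNF1 (−0.43), UGP1 (−0.41), HXK2 (−0.38), CYR1 (−0.37) and GIS1 (−0.30). ATH1, PGM2, NTH2, TPS1 and NTH1 passed as lower under every alternative of scaling, test and array left out.

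**Figure D5:**
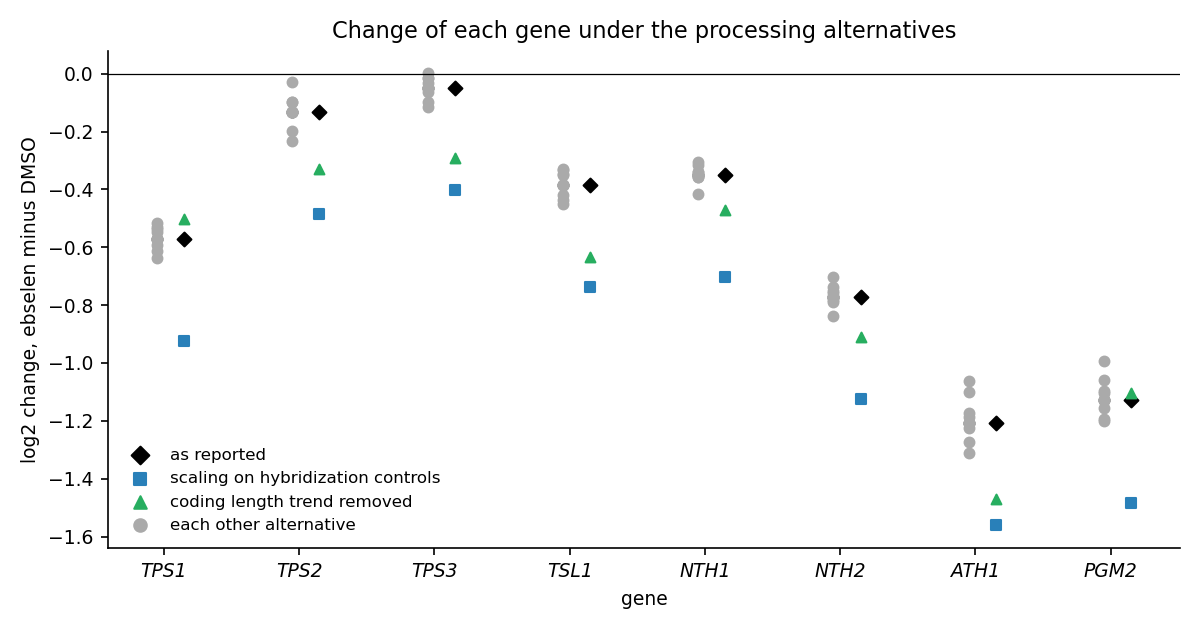
Log2 change, ebselen minus DMSO (vertical axis), of each trehalose gene (horizontal axis) as reported (diamonds), with scaling on hybridization controls (squares), with the coding length trend removed (triangles) and under each other alternative (grey points). The order of ATH1 and PGM2 below NTH2 holds in each, and grey points reach 0 only for TPS3.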

How the data were processed

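Scanner files of Affymetrix Yeast Genome 2.0 arrays were normalized by RMA (submitters' processing notes), and the authors used GeneSpring with a Benjamini-Hochberg corrected t-test, per the labels' design text. What was deposited is taken as log2, since RMA gives log2. Neither the base nor the centring step is stated in the sources used here, and every fold rests on that base. Each probe set had a median of 0 over the 4 arrays (to within 5e-07), so levels are unknown. Array medians over all probe sets ran from −0.01 to 0.02. Directions rest on the deposited labels.

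The table holds 10928 probe sets, 7244 of them annotated with 1 symbol, 1 with several and 3683 with none. RefSeq gene IDs (assembly R64, used for names, neighbours and coding lengths) placed 5498 on 5449 S. cerevisiae genes. Probe sets of 1 gene were averaged, as for 47 genes; no filter on low values was applied. No coordinates are given, since the files name no build.

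Groups were compared in limma 3.58.1 (R 4.3.3), group as the only term, two-sided, with Benjamini-Hochberg adjustment over 5449 genes at 0.05. Residual degrees of freedom were 2 and prior ones 3.13 (prior SD 0.063). The procedure was tested on simulated data in which few genes changed, a setting unlike these arrays, where 71.7% of genes passed. Figures were drawn with matplotlib 3.10.9. The text names the 8 genes, the related lists and the 3 genes most like ATH1. The rule for the 8 genes uses symbols and no measured value, but it and the lists were written with earlier results of these data known. A total of 16 alternatives covered the replicate block, each array left out, scaling, coding length, all probe sets in one fit, robust eBayes, the methods' t-test and other thresholds. The number of arrays limits the precision.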

Additional observations from a re-analysis of the deposited data

How the results depend on the processing

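All 6 trehalose genes that fell kept their call under 14 of 16 alternatives. In the methods' t-test 5 did, without TSL1 (adjusted p 0.0538), and with a change of at least 2-fold also required 2 did (ATH1 and PGM2), when 228 of all genes rose and 412 fell. With scaling on the hybridization controls 645 genes rose and 3177 fell. The 4 arrays left out in turn gave 6 to 7 trehalose genes called lower and 0 higher, 1499 to 1777 genes higher and 1786 to 2108 lower. TPS3 ran from −0.10 to 0.0015 over those 4 fits, GPH1 from −0.22 to 0.028 and CYR1 from −0.087 to 0.057. Signs also turned for HOG1, which had passed as higher, and for genes that had not passed. HXK2 changed by 0.0065 after quantile normalization, 0.0048 after median centring and 0.047 with the coding length trend removed, and CYR1 by 0.022 and 0.017 under the quantile and median alternatives. GIS1 changed by −0.0073 with centring on S. pombe probe sets, −0.30 with hybridization controls and −0.14 with the length trend removed. That removal gave UGP1 0.0095, RAS1 0.035 and BMH1 0.016. Scaling on hybridization controls gave HXK1 −0.26, EMI2 −0.24 and HOG1 −1.4e-05. The cause of these turns was not tested. With the replicate block 6 trehalose genes fell and 0 rose, among 1670 genes higher and 1971 lower. Numbers shared by the groups are not stated to mark a shared batch, and deviations of same-numbered arrays correlated at −0.08 over genes. A filter on dim probe sets was not run, because centred values hold no level, and each trehalose gene had 1 probe set, so no probe set choice applied.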
